A study of Arabidopsis thaliana with 44 samples.

Results

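The comparison described here is sw:*cbf123* against SW after 2 weeks at 4°C, read gene by gene in aerial tissue of Arabidopsis plants grown for 23 days before the cold. SW is a Swedish ecotype of *Arabidopsis thaliana*, and sw:*cbf123* is a CRISPR/Cas9 line made in it with frameshift alleles of *CBF1*, *CBF2* and *CBF3*. A gene was kept when its transcript level reached 1 FPKM (fragments scaled by transcript length and by the mapped fragments of the library) in either line, which kept 18123 of the 33557 genes in the table. For each kept gene the log2 ratio of sw:*cbf123* over SW was taken after 0.5 FPKM was added to both values, and a gene was called lower or higher when that ratio reached −1 or 1, a 2-fold difference on this scale. The added 0.5 FPKM shrinks the ratio of genes with low levels.

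Plants were grown at 22°C with a 12-h photoperiod and light of 100 to 120 µmol m-2 s-1, or moved to 4°C in light of about 35 µmol m-2 s-1, and harvested at ZT 4. The series has 44 libraries, 2 in each of 22 groups of 8 lines, and the groups used here are SW, sw:*cbf2* (a 19-bp deletion in *CBF2*), sw:cbf23 (known from its label alone) and sw:*cbf123*, each in the warm, after 24 h of cold and after 2 weeks of cold. Where levels in the mutants are given as a row of 3, their order is sw:*cbf2*, sw:cbf23, sw:*cbf123*. The mutants are progeny of plants freed of the Cas9 transgene by a backcross, and how many independent lines stand behind a label is not given in the sources used here. Each value printed is the authors' pooled value of both replicates of a group, so a difference has no replicate check, no p-value is given, and every call is a call on the size of a ratio.

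The CBF proteins, also called DREB1, are AP2/ERF transcription factors that plants make within minutes to hours of a fall in temperature. They bind a short element, the CRT/DRE with the core CCGAC, upstream of cold-responsive genes, and the set of genes they switch on is called the CBF regulon. Many of its products protect cells against freezing: hydrophilic LEA proteins and dehydrins that bind membranes and proteins, and enzymes that make raffinose and other protective sugars. Keeping this set active is part of cold acclimation, the gain of freezing tolerance in plants held at low, non-freezing temperature.

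The targeted genes come first. *CBF2*, *CBF3* and *CBF1* lie in tandem on chromosome 4 of TAIR10.1, at 13015250 to 13016235, 13018010 to 13019400 and 13021780 to 13022996. The bases around each change are shown because they define the mutant: the lines give the coding strand of SW and of sw:*cbf123*, with deleted bases in capitals in the SW line and the inserted base in capitals in the mutant line.
CBF1 SW: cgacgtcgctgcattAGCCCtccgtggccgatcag
CBF1 sw:cbf123: cgacgtcgctgcatttccgtggccgatcag
CBF2 SW: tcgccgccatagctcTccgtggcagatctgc
CBF2 sw:cbf123: tcgccgccatagctcccgtggcagatctgc
CBF3 SW: cggcggctgaagctgcgttggcgtttcagg
CBF3 sw:cbf123: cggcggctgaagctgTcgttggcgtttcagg
In *CBF1*, 5 bases are lost from position 276 of the coding sequence, counted from the A of the start codon, and the reading frame ends after 102 codons in place of 213. In *CBF2*, 1 base is lost at position 290 and the frame ends after 132 codons in place of 216. In *CBF3*, 1 base is gained before position 395 and the frame ends after 137 codons in place of 216.

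The mutant alleles were still transcribed after 2 weeks of cold. *CBF1* stood at 1.78 FPKM in SW and 2.16, 2.37 and 1.76 FPKM in sw:*cbf2*, sw:cbf23 and sw:*cbf123*. *CBF3* stood at 15.4 FPKM in SW and 13.4, 25.7 and 21.1 FPKM in sw:*cbf2*, sw:cbf23 and sw:*cbf123*, a log2 ratio of 0.44 for sw:*cbf123* over SW. *CBF2* stood at 14.8 FPKM in SW and 13.8, 17.7 and 29.1 FPKM in sw:*cbf2*, sw:cbf23 and sw:*cbf123*, a log2 ratio of 0.96, just short of the 2-fold size. The level of a *CBF* transcript therefore does not check the labels, since the changes are of 1 to 5 bases, and reads may be shared among the 3 similar neighbours. In the warm *CBF1* was listed at 0 in SW and in sw:*cbf123*, *CBF2* at 0.0322 FPKM in SW and 0.187 in sw:*cbf123*, and *CBF3* at 0.392 FPKM in SW and 1.08 in sw:*cbf123*. The relatives *CBF4*, *DDF1* and *DDF2* stayed under 1 FPKM in both lines at 2 weeks.

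At 2 weeks 476 genes (2.63% of those kept) were lower and 623 (3.44%) were higher in sw:*cbf123* than in SW, while 17024 lay within 2-fold, and the median log2 ratio of all kept genes was 0.05. Of the genes called lower, 408 are protein-coding and 42 were listed at 0 in sw:*cbf123*. Among those above 0 in both lines, 386 were between 2- and 4-fold lower, 48 were past 4-fold and 16 of these were past 8-fold. Of the genes called higher, 548 are protein-coding and 59 were listed at 0 in SW. Among those above 0 in both lines, 26 were past 4-fold and 4 past 8-fold. Among genes above 0 in both lines, the largest differences were thus mostly falls. The same ratio called 410 genes lower (2.24%) and 381 higher (2.08%) in the warm, and 1022 lower (5.57%) and 967 higher (5.27%) at 24 h.

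**Figure D1:**
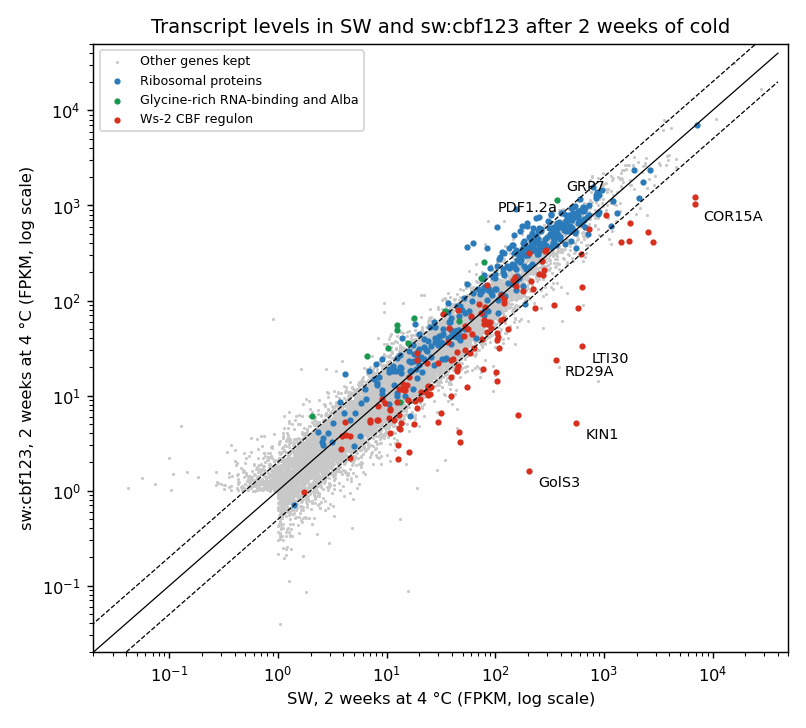
Transcript level in SW (x axis) and sw:*cbf123* (y axis) after 2 weeks at 4°C, in FPKM on log axes. Each point is a kept gene above 0 in both lines, at the authors' pooled value of 2 replicates. Colours mark ribosomal proteins, glycine-rich RNA-binding and Alba proteins, and the Ws-2 CBF regulon list (described below), whether or not a gene was called. The points farthest from the diagonal lie below it, with *KIN1* (559 and 5.13 FPKM) and *GolS3* (206 and 1.62 FPKM) among the named genes.

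Facts of the libraries that touch these counts are as follows. The 12 groups in the SW background had FPKM sums of 880986 to 965665 and 17705 to 18094 genes at 1 FPKM or more, and the number of fragments behind a value is unknown, so no sampling error can be set. Leaf genes were abundant in both lines, and all 6 root markers and all 6 floral organ markers were under 1 FPKM in both, so no defining marker of root or flower went against the labelled aerial tissue. In such bulk tissue, fewer cells of a type and less RNA per cell cannot be told apart. SW stood apart from all 3 mutants at 2 weeks: 294 genes were lower and 453 higher in sw:*cbf2* than in SW, and 352 and 624 in sw:cbf23, where sw:*cbf123* over sw:cbf23 gave 184 and 96. These comparisons with SW share the SW libraries, so their values are set side by side here and not counted as repeats of each other. A property of the transcripts moved with the ratio too. The excess of G over C in coding sequence, (G − C)/(G + C), called the G/C balance, had a median of −0.080 in the genes called lower, 0.167 in those called higher and 0.0855 in all kept. The median log2 ratio climbed from −0.89 in the 289 genes with a balance of −0.2 or less to 0.50 in the 399 genes above 0.3. The same climb ran from −0.84 to 0.33 in the warm and from −0.94 to 0.48 at 24 h, while sw:*cbf123* over sw:cbf23 at 2 weeks went from −0.064 to −0.019. With that trend taken out by lowess, an alternative chosen after the data had been seen, 233 genes were lower and 341 higher, of which 183 and 263 were shared with the first calls. Its part in each result was not tested, and values with it taken out are given beside several of the groups whose counts or medians it moved.

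**Figure D2:**
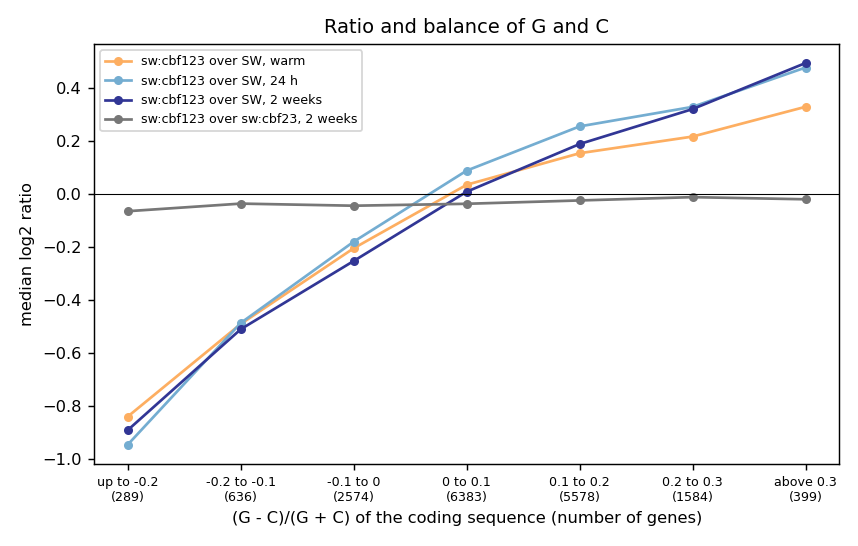
Median log2 ratio (y axis) of protein-coding genes binned by the G/C balance of their coding sequence (x axis), for sw:*cbf123* over SW at 2 weeks, at 24 h and in the warm, and for sw:*cbf123* over sw:cbf23 at 2 weeks. The 3 comparisons with SW climb from left to right (−0.89 to 0.50 at 2 weeks), and the comparison of mutants stays between −0.064 and −0.011.

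The genes lower in sw:*cbf123* were often ones that SW itself induces in the cold. In SW, 2740 genes (14.6%) were called up and 2766 (14.7%) down at 24 h against the warm, and 1748 (9.39%) up and 2114 (11.4%) down at 2 weeks. Plants in the cold also had less light than those in the warm, and at 2 weeks they were older. Induction by cold cannot be told apart from these differences here. Of the 476 genes lower in the mutant at 2 weeks, 208 (43.7%, or 7.59% of the 2740) were induced in SW at 24 h, a comparison that shares no library with the 2-week ratio, where 13.5% of all kept genes were. A further measure was induction in SW at 2 weeks, which shares the SW libraries: 191 of the 476 (40.1%) were induced against 9.65% of all kept. The mirror image was weaker. Of the 623 genes higher in the mutant, 153 (24.6%, or 5.53% of the 2766) were reduced in SW at 24 h, against 13.6% of all kept. Of the lower genes 143 (30.04%, or 34.9% of the 410) were also lower in the warm and 273 (57.4%, or 26.7% of the 1022) at 24 h, and of the higher genes 151 (24.2%, or 39.6% of the 381) were higher in the warm and 392 (62.9%, or 40.5% of the 967) at 24 h.

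The CBF regulon was lower as a group. The list of 136 genes that an earlier study of the accession Ws-2 defined by induction in the cold and by *CBF* overexpression had 134 members kept. Of these 53 were lower and 1 higher at 2 weeks, with a median log2 ratio of −0.76, beside 2.63% lower and a median of 0.05 over all kept genes. The members stepped down with the number of mutant *CBF* genes in the label: the list's median was −0.34 in sw:*cbf2*, −0.44 in sw:cbf23 and −0.76 in sw:*cbf123* over SW, and 73 of the 134 (54.5%) fell in the order SW, sw:*cbf2*, sw:cbf23, sw:*cbf123*, where 11.5% of all kept genes did. In the warm the list's median was 0.26, on the other side of 0. The class of 44 genes that the study lists as CBF regulon members in SW, IT and Col-0 was chosen in part on 24 h libraries of this series and is no independent evidence of direction. Of its 43 genes kept, 29 were lower and 0 higher at 2 weeks, with a median of −1.58, and 35 (81.4%) stepped down over the 4 lines. IT is an Italian ecotype and Col-0 the reference accession. The other classes, also set at 24 h, had smaller median falls. In the class found in SW alone, 65 of 245 were lower and 6 higher with a median of −0.68. In the class shared by SW and Col-0, 28 of 66 were lower (median −0.89). In the class shared by IT and Col-0, which the study did not assign to SW at 24 h, 15 of 28 were lower (median −1.05). In the class found in IT alone, 2 of 23 were lower (median −0.03), and in that of Col-0 alone 16 of 136 were lower and 2 higher (median −0.30). With the G/C trend taken out, 47 of the Ws-2 genes and 28 of the common class were lower, with medians of −0.67 and −1.53. Of the 476 lower genes, 161 are in a list of the study and 315 in none.

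Part of the cold induction remained in the mutant. The log2 ratio of 2 weeks over warm had a median of 1.17 in SW and 0.26 in sw:*cbf123* for Ws-2 genes, and of 2.15 and 0.40 for the common class. Of the 73 Ws-2 genes induced in SW at 2 weeks, 31 were induced in sw:*cbf123* over its own warm level, and 37 were lower in the mutant. Over time the list's median was the same to 2 decimals, −0.76 at both 24 h and 2 weeks, but its members differed. Of the Ws-2 genes, 36 were lower at both times, 17 at 2 weeks without a call at 24 h, and 18 at 24 h without a call at 2 weeks. The ratio at 2 weeks lay below that at 24 h by 1 or more in 17 genes and above it by 1 or more in 10.

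**Figure D3:**
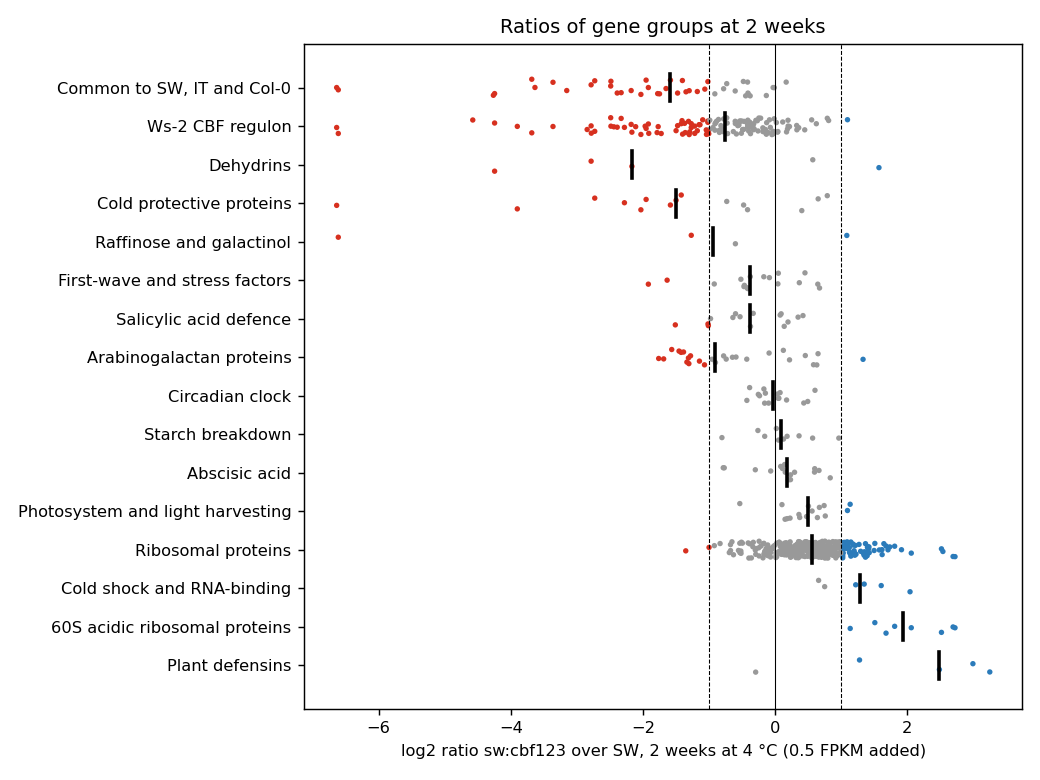
Log2 ratio of sw:*cbf123* over SW after 2 weeks at 4°C (x axis) for the genes of each list (rows) listed above 0 in both lines; points are genes, red at −1 or less and blue at 1 or more, and bars are medians of the genes drawn. The cold-protective, dehydrin and common CBF lists have medians to the left of 0, while ribosomal and RNA-binding lists have medians to the right.

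Most of the cold-protective proteins were lower. Of 15 kept members of this list, 9 were lower and 0 higher (median −1.50). *KIN1*, which encodes a small hydrophilic cold-induced protein, had 559 FPKM in SW and 339, 76.9 and 5.13 FPKM in the mutants. The triple mutant thus kept 0.917% of the SW level, a log2 ratio of −6.64. It was still above the warm level of the line (2.17 FPKM) by a log2 ratio of 1.07. Its tandem neighbour *KIN2* had 2532 FPKM in SW and 4069, 2680.4 and 521 FPKM in the mutants, so that neither sw:*cbf2* nor sw:cbf23 was below SW and the triple mutant was lower (log2 ratio −2.28). The pair is nearly identical in sequence, and the split of reads between them is uncertain. *RD29A*, whose product is a hydrophilic protein long used as a marker of this pathway, had 359.8 FPKM in SW and 235, 164 and 23.6 FPKM in the mutants (log2 ratio −3.90).

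*COR15A* and *COR15B* encode LEA proteins of the chloroplast stroma that stabilise membranes in freezing. *COR15A* had 6830.3 FPKM in SW and 5525, 2948 and 1029 FPKM in the mutants (log2 ratio −2.73), falling at each step. *COR15B* had 1745 FPKM in SW and 1661, 1229 and 651 FPKM in the mutants (log2 ratio −1.42), with the lines in the same order. In the warm the triple mutant was above SW for *COR15A*, with 83.6 FPKM in SW and 189.6 in sw:*cbf123*. The membrane proteins of the COR413 family also fell at each step of the lines. *COR413-PM1*, of the plasma membrane, had 1715 FPKM in SW and 896, 693 and 419 FPKM in the mutants (log2 ratio −2.03), and *COR413IM1*, of the chloroplast inner envelope, had 347 FPKM in SW and 200.4, 125 and 89.3 FPKM in the mutants (−1.95). *ERD4* (log2 ratio −1.58) and *LEA14* (−1.50) were lower as well. Members within 2-fold ran from −0.73 in *HVA22D* to 0.79 in *RCI2A*, a small membrane protein at 98.4 FPKM in SW and 170.4 in sw:*cbf123*. *RD29B* was under 1 FPKM in both lines (0.811 and 0.240).

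Among the dehydrins, hydrophilic proteins that gather in drying and freezing cells, 3 of 5 kept were lower and 1 higher. *LTI30* had 635 FPKM in SW and 279, 175 and 33.0 FPKM in the mutants (log2 ratio −4.25). *ERD10* had 582 FPKM in SW and 262, 201 and 84.0 FPKM in the mutants (log2 ratio −2.78), and the mutant was at its warm level of 82.2 FPKM. *COR47* had 632 FPKM in SW and 348, 272 and 140.3 FPKM in the mutants (log2 ratio −2.17). All 3 stepped down over the 4 lines. The 1 higher was *RAB18*, an abscisic acid-induced dehydrin with low levels, which had 2.88 FPKM in SW and 6.25, 9.32 and 9.56 FPKM in the mutants (log2 ratio 1.57), and it was above SW in the warm too (1.21). *ERD14* had 245 FPKM in SW and 364 in sw:*cbf123* (0.57).

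**Figure D4:**
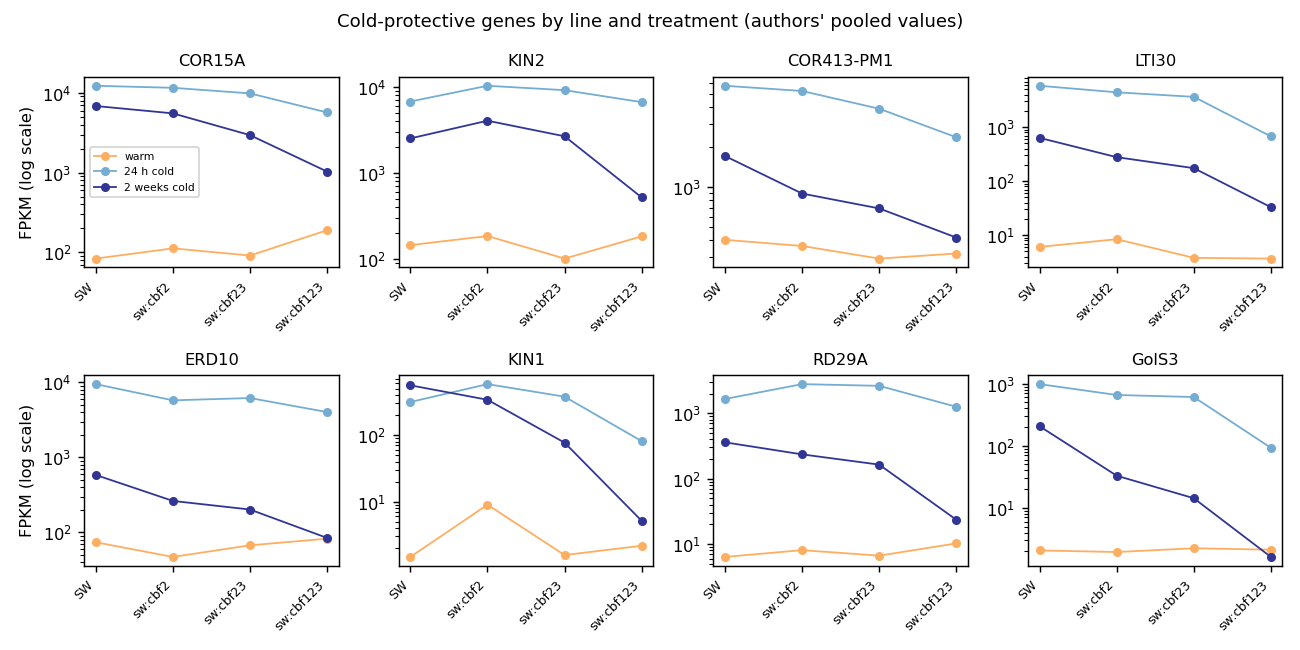
Transcript level in FPKM (y axis, log scale) of 8 genes in SW, sw:*cbf2*, sw:cbf23 and sw:*cbf123*, in the warm, after 24 h and after 2 weeks at 4°C; each point is the authors' pooled value of 2 replicates. At 2 weeks *KIN1* goes from 559 FPKM in SW to 5.13 in sw:*cbf123* and *LTI30* from 635 to 33.0, with the other mutants between them.

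Several of these genes differed more between the lines at 2 weeks than at 24 h. *RD29A* at 24 h had 1654 FPKM in SW and 1258 in sw:*cbf123*, a log2 ratio of −0.39 against −3.90 at 2 weeks. *KIN2* at 24 h had 6807 FPKM in SW and 6689.8 in sw:*cbf123* (−0.03 against −2.28). *KIN1* at 24 h had 314 FPKM in SW and 81.0 in sw:*cbf123* (−1.95 against −6.64), and between the times it went up in SW and down in the mutant. *GolS3* likewise went from −3.40 to −6.61. A fall from 24 h to 2 weeks took place in both lines for *COR47*, which had 6462 FPKM in SW and 3667 in sw:*cbf123* at 24 h, and for *ERD10*, which had 9474 FPKM in SW and 4014 in sw:*cbf123*. Other members differed less at 2 weeks than at 24 h. *HVA22E* had a log2 ratio of −2.35 at 24 h and −0.42 at 2 weeks, *GORK*, a potassium channel of guard cells, −2.02 and −0.60, and *DI21* −1.42 and −0.13. No test of a difference between the times was possible with pooled values.

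Protective sugars split by gene. Galactinol synthases start the path to raffinose, and 2 of the 4 genes kept in that list were lower and 1 higher. *GolS3*, the cold-induced member, had 206 FPKM in SW and 32.9, 14.3 and 1.62 FPKM in the mutants, so the mutant kept 0.783% of SW (log2 ratio −6.61) and sat at its warm level (2.11 FPKM). *GolS1* had 39.0 FPKM in SW and 22.2, 21.9 and 15.9 FPKM in the mutants (log2 ratio −1.27). *GolS2*, known for its response to drought, was the higher member with 3.69 FPKM in SW and 5.04, 7.02 and 8.38 FPKM in the mutants (1.09), and it was just short of 2-fold with the G/C trend taken out (0.996). Raffinose synthase *RS5* had 23.2 FPKM in SW and 15.1 in sw:*cbf123* (−0.60), short of 2-fold. None of 5 kept genes of proline metabolism, of 10 of starch breakdown or of 9 of membrane lipid desaturation passed 2-fold, with medians of −0.07, 0.09 and −0.09. Over all kept genes only 6.06% were called in either direction, so lists this short without a call are not set apart from other genes. The β-amylase gene *BAM3* had 830.0 FPKM in SW and 744 in sw:*cbf123*, the proline synthesis gene *P5CS1* 153 and 175, and the glucan phosphorylating enzyme *GWD1* 90.8 and 51.7 (−0.80). Of 14 genes of sucrose and sugar transport, *SWEET4* was higher (5.96 and 13.1 FPKM, log2 ratio 1.07) and the others lay within 2-fold.

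The element that CBF proteins bind was counted in the 1000 bases before the start codon of TAIR10.1. That genome is of the reference accession Col-0. Promoters of SW were not read and may differ, in the windows shown and in the counts. The motif searched was ACCGAC or GCCGAC on both strands, with overlapping matches counted separately. It is shown for some of the lower genes named above, picked among those that hold it. Some genes with deeper falls than *KIN2* and *COR47* hold none and are named below. Windows are 30 bases each, written 5′ to 3′ on the strand of the gene, with the motif in capitals (GTCGGT and GTCGGC are the motif on the other strand).
KIN1, chr5:5209801-5209830: cgataaatagctACCGACataaggcaaaac
KIN2, chr5:5211768-5211797: caataaaaagctACCGACataaggcaaaaa
GolS3, chr1:3019411-3019440: cataaatagtagGTCGGCcatgggtcggac
LTI30, chr3:18940552-18940581: aaccactactacACCGACgtcttacttgcc
RD29A, chr5:21240671-21240700: aaaagatatactACCGACatgagttccaaa
COR15A, chr2:17712216-17712245: cacaatttcatgGCCGACctgctttttttt
COR47, chr1:7085916-7085945: tgatattcatctACCGACttcaagaaataa
The windows of *KIN1*, *RD29A*, *KIN2* and *LTI30* are on the forward strand of the chromosome, as is that of *GolS3*, and those of *COR15A* and *COR47* on the reverse strand. *RD29A* held 4 motifs, *GolS3*, *LTI30* and *COR15A* 3 each, and *KIN1*, *KIN2* and *COR47* 1 each.

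Promoters of the genes called lower held the motif more often than others, as a description. It was in 144 of 408 (35.3%), against 25.9% of the genes called higher, 25.2% of all kept and 23.1% of 26690 promoters of the genome. Of the 48 genes past 4-fold and above 0 in both lines, 42 had a promoter and 28 of these (66.7%) held it, and with the genes listed at 0 in sw:*cbf123* added it was 31 of 60 (51.7%). Among lower genes that SW induced at 24 h the share was 47.9%, beside 33.1% of all kept genes that SW induced at 24 h. Among lower genes that SW did not induce then it was 24.1%, close to the share of all kept. The Ws-2 list had high shares whether its members were lower (41 of 53, 77.4%) or within 2-fold (66.2%), and that list's members were defined by *CBF* overexpression. Of lower genes in no list of the study 22.9% held the motif. The deep falls of *FMO GS-OX4*, *CIPK25*, AT3G22142, *EXT4* and *AZI1* had no such letters in the Col-0 window.

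Of the transcription factors of the first hours in the cold and related zinc-finger and ERF factors, 2 of 17 were lower. *RAP2.1*, a DREB-type repressor that CBF proteins induce, had 39.1 FPKM in SW and 18.9, 14.6 and 9.97 FPKM in the mutants (log2 ratio −1.92). The zinc-finger repressor *AZF2* had 3.19 FPKM in SW and 1.41, 1.39 and 0.688 FPKM in the mutants (−1.63). Both stepped down over the lines. Several others were closer at 2 weeks than at 24 h. *ZAT10* had 15.8 FPKM in SW and 8.09 in sw:*cbf123* at 2 weeks (−0.92) but 169.6 and 24.3 at 24 h (−2.78). *WRKY33*, a defence regulator, had 40.3 and 35.8 FPKM at 2 weeks (−0.17) and 113 and 15.2 at 24 h (−2.86). *WRKY40* went likewise from −2.42 to 0.04. *ZAT12* (0.67), *ZAT6* (−0.38) and *CZF1* (0.37) were within 2-fold, and *HSFC1* was under 1 FPKM. Of the touch genes, calcium-binding and cell wall proteins that respond to handling, 4 were lower at 24 h and 0 of the 6 kept were lower at 2 weeks. *TCH4*, a xyloglucan-modifying enzyme, had 18.3 FPKM in SW and 3.25 in sw:*cbf123* at 24 h (−2.33), and 1.67 and 1.85 FPKM at 2 weeks (0.11).

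Of the regulators upstream of the *CBF* genes, *ICE1*, a bHLH activator of *CBF3*, was higher in every mutant, with 8.02 FPKM in SW and 19.3, 20.8 and 20.9 FPKM in the mutants (log2 ratio 1.33). The 3 mutants were close to each other. In the warm SW also had the lowest level, with SW at 9.81 FPKM and sw:*cbf123* at 21.2. The CAMTA factors, *OST1* and *HOS1* lay within 2-fold.

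Other genes the study names for the regulon include deep falls, 5 lower and 0 higher of 11, beside 2.63% lower over all kept genes. The 5 lower genes belong to the common class above, chosen in part on 24 h libraries of this series. All 11 were lower at 24 h, so the list is no independent evidence of direction. *RLP33*, a receptor-like protein, had 47.5 FPKM in SW and 12.2, 6.08 and 3.23 FPKM in the mutants (log2 ratio −3.68). *FMO GS-OX4*, which oxidises the side chain of glucosinolates, had 46.7 FPKM in SW and 14.03, 9.03 and 4.09 FPKM in the mutants (−3.36). *AZI1*, a lipid-transfer-like protein of defence priming, had 6835 FPKM in SW and 2579, 1549 and 1220.4 FPKM in the mutants (−2.49). *BGLU7* (−1.48) and the phospholipase *PLC4* (−1.06) were lower by less.

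The genes beside *AZI1* on chromosome 4 were lower too, and were picked out after their values were seen. *EARLI1*, of the same family, had 2813 FPKM in SW and 1557, 957 and 409 FPKM in the mutants (log2 ratio −2.78). AT4G12490 had 34.7 FPKM in SW and 34.8, 42.7 and 2.103 FPKM in the mutants (−3.76). AT4G12500 had 28.97 FPKM in SW and 25.5, 30.3 and 1.66 FPKM in the mutants (−3.77). AT4G12490 and AT4G12500 did not follow the stepwise pattern: the sw:*cbf2* and sw:cbf23 levels were close to SW and the triple mutant was far below. The 4 genes lie between 7401087 and 7414955, and share sequence, so reads may be split among them. Of 54 lipid-transfer protein genes kept, 11 were lower and 0 higher, and with the G/C trend taken out 6 were lower and 2 higher.

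Further genes are named by the size of the fall among protein-coding genes above 0 in both lines, and all of these but *MAPR2* were cold-induced in SW. AT1G16850, of unknown function, had 161 FPKM in SW and 60.4, 27.2 and 6.28 FPKM in the mutants (log2 ratio −4.58) and 0.271 FPKM in warm SW. *CIPK25*, a protein kinase of calcium signalling, had 105 FPKM in SW and 67.1, 38.4 and 14.1 FPKM in the mutants (−2.84). AT4G30830 had 19.0 FPKM in SW and 7.20, 4.32 and 1.07 FPKM in the mutants (−3.63). All 3 stepped down over the lines. AT3G22142, a lipid-transfer-like protein, had 390.1 FPKM in SW and 58.5, 33.6 and 19.8 FPKM in the mutants (−4.26), but in the warm it already had 24.6 FPKM in SW and 4.36 in sw:*cbf123* (−2.37). *MAPR2*, a membrane-associated progesterone-binding protein, had 15.7 FPKM in SW and 1.09, 4.13 and 0.0883 FPKM in the mutants (−4.79), and in the warm 20.9 FPKM in SW and 0.0217 in sw:*cbf123* (−5.36), so that the difference was there without cold. Its neighbour AT2G24945 was higher (9.55 and 34.7 FPKM, log2 ratio 1.81).

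By plain rank, the largest falls are led by values of 0. Of the 12 largest falls among genes at 5 FPKM or more, 10 were listed at 0 in sw:*cbf123*, and *KIN1* and *GolS3* were the others. Of those 10, 8 were not annotated as protein-coding. All 12 largest rises were listed at 0 in SW and not annotated as protein-coding. Both counts take in chloroplast genes for which no biotype was found, and these may code for protein. The first of the falls was *RBCS1A*, the main small subunit gene of Rubisco, which had 29838 FPKM in SW, 28435 in sw:*cbf2* and 28173 in sw:cbf23 and was listed at 0 in sw:*cbf123*. In the same line it had 19668 FPKM in the warm and 19175 at 24 h, and a 0 for a gene that every leaf uses can be a failed estimate, so no fold is given. The other Rubisco and Calvin cycle genes lay within 2-fold, all but *PRK* above 0, such as *RBCS1B* (399.9 and 648 FPKM, 0.70). At the 2-fold size itself, AT5G27820 was just inside (187 and 93.0 FPKM) and AT3G32940 just outside (32.1 and 15.8), and on the other side AT2G33510 was just inside (2.29 and 5.08) and *ARGAH2* just outside (70.3 and 141).

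Among the genes higher in sw:*cbf123*, the plant defensins stood out by size. Defensins of the PDF1 group are small antifungal peptides and markers of jasmonate and ethylene signalling, and 4 of the 5 kept were higher. *PDF1.2a* had 86.1 FPKM in SW and 341, 476 and 689 FPKM in the mutants (log2 ratio 2.99). *PDF1.3* had 122 FPKM in SW and 388, 583 and 683 FPKM in the mutants (2.49). *PDF1.2c* had 9.51 FPKM in SW and 49.2, 88.0 and 94.7 FPKM in the mutants (3.25). Each of these climbed with every step of the lines. *PDF1.2b* had 201 FPKM in SW and 311, 278 and 489 FPKM in the mutants (1.28). In the warm the triple mutant was below SW for all 4, from −0.70 in *PDF1.2a* to −1.54 in *PDF1.2b*, while sw:*cbf2* was above SW, as for *PDF1.2a* with 12.5 FPKM in SW and 67.7 in sw:*cbf2*. These genes are similar copies, and their separate values are uncertain. This list came from product names after the ratios were seen, and the 4 calls stood with the G/C trend taken out. Of the other 16 kept genes of jasmonate synthesis and output, none passed 2-fold.

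Of 15 salicylic acid defence genes kept, 3 were lower and 0 higher, with a median of −0.37. Ratios were below 0 in 9 and above 0 in 6, and all 3 calls were near a threshold. *FMO1*, which makes the systemic immune signal N-hydroxypipecolic acid, had 1.04 FPKM in SW and 0.201, 0.549 and 0.0396 FPKM in the mutants (log2 ratio −1.51). It was kept only through its SW level, just above the filter of 1 FPKM. *SAG101*, a partner of EDS1 in immune signalling, had 75.1 FPKM in SW and 39.1, 30.6 and 36.9 FPKM in the mutants (−1.02), with all mutants low. *PR5*, a thaumatin-like protein, had 1206 FPKM in SW and 737, 1139 and 598 FPKM in the mutants (−1.01), with sw:cbf23 close to SW. In the warm 7 of 16 genes of this list were lower and at 24 h 10 of 16, so fewer passed at 2 weeks. *PR5* and *SAG101* had −0.88 and −0.29 with the G/C trend taken out.

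Genes for RNA-binding proteins, and a part of those for ribosomal proteins, were higher in sw:*cbf123*, with values of the same order in the other mutants. Of 6 genes in the list of cold shock and RNA-binding proteins, 4 were higher (median 1.28, against 1.13 in sw:*cbf2* and 1.51 in sw:cbf23). *GRP7*, a clock-regulated glycine-rich protein that binds RNA, had 373 FPKM in SW and 1139.6, 1659 and 1136 FPKM in the mutants (log2 ratio 1.61). *CSP2*, an RNA chaperone with a cold shock domain, had 7.63 FPKM in SW and 19.3, 25.6 and 20.2 FPKM in the mutants (1.35). *CSP4* had 1.26 FPKM in SW and 4.36, 7.94 and 6.74 FPKM in the mutants (2.04), and *GRP8* 73.5 FPKM in SW and 145, 187 and 172 FPKM in the mutants (1.22). SW was the lowest of the 4 lines in each case, and sw:cbf23 was the highest. The difference was present in the warm, where *GRP7* had 17.0 FPKM in SW and 42.6 in sw:*cbf123*. Of 7 glycine-rich RNA-binding proteins found by product name, all 7 were higher (median 1.61), and of 6 Alba proteins, which bind DNA and RNA, 4 (median 1.45).

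Of 348 ribosomal protein genes, 58 were higher and 2 lower, with a median of 0.56 (0.46 in sw:*cbf2*, 0.51 in sw:cbf23, and 0.20 in the warm and 0.51 at 24 h for sw:*cbf123*). The acidic proteins of the 60S stalk led, with 8 of 8 higher and a median of 1.94. AT5G57290 had 54.4 FPKM in SW and 264, 349.9 and 362 FPKM in the mutants (log2 ratio 2.72). AT2G27710 had 62.6 FPKM in SW and 321, 400.1 and 407 FPKM in the mutants (2.69), and its neighbour AT2G27720 had 103 FPKM in SW and 495, 577 and 594 FPKM in the mutants (2.52). In each the single mutant sw:*cbf2* already lay far above SW and the triple mutant added little. With the G/C trend taken out, 34 ribosomal genes, 7 of the 8 acidic ones, 3 of the 7 glycine-rich ones, 1 of the 6 cold shock and RNA-binding genes and 3 of 6 Alba genes were higher. The lists from product names were chosen after the ratios were seen. Set against sw:cbf23 in place of SW, *GRP7* in sw:*cbf123* was at −0.55, below and not above its reference.

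**Figure D5:**
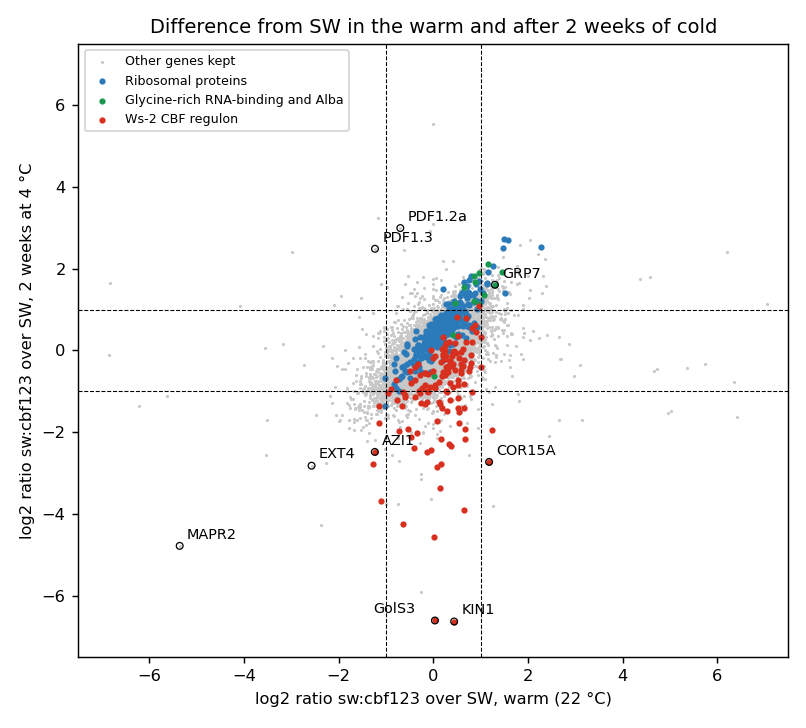
Log2 ratio of sw:*cbf123* over SW in the warm (x axis) and after 2 weeks at 4°C (y axis). Each point is a gene kept at 2 weeks and above 0 in both lines then, with list members coloured. No filter was set on the warm levels, and the added 0.5 FPKM shrinks the warm ratio of genes low in the warm. CBF regulon genes such as *KIN1* (0.44 and −6.64) lie below the others near 0 on the x axis, and RNA-binding genes such as *GRP7* (1.61 at 2 weeks) lie above 0 on both.

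Some genes for cell wall proteins were lower with and without cold, but the medians of arabinogalactan proteins and extensins were no longer below 0 with the G/C trend taken out. Arabinogalactan proteins, sugar-coated proteins of the cell surface, had 12 of 27 lower and 1 higher (median −0.90). *AGP26* had 81.1 FPKM in SW and 28.1, 27.7 and 23.5 FPKM in the mutants (log2 ratio −1.76), and *FLA8* 124 FPKM in SW and 48.2, 49.7 and 45.1 FPKM in the mutants (−1.45). The mutants were near each other, and in the warm *AGP26* had 85.9 FPKM in SW and 26.6 in sw:*cbf123* (−1.67). *AGP21* was higher (11.2 and 28.9 FPKM, 1.33). Extensins, rod-like proteins that cross-link the wall, had 6 of 21 lower (median −0.66). *EXT4* had 637 FPKM in SW and 251, 215 and 89.6 FPKM in the mutants (−2.82). *EXT3* had 415 FPKM in SW and 113, 115 and 60.9 FPKM in the mutants (−2.76). Both were lower in the warm as well (−2.57 and −2.26). With the G/C trend taken out, the medians were 0.08 for arabinogalactan proteins and 0.00 for extensins, with 0 and 1 genes lower. *EXT4* then had −1.16 and *EXT3* −0.74. Inhibitors of invertase and pectin methylesterase had 7 of 27 lower (2 after the trend was taken out), and aspartyl proteases 10 of 42 (3 after). Alpha-expansins, which loosen walls, had 0 of 9 past 2-fold.

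Photosynthesis genes leaned upward within 2-fold. Of 16 photosystem and light-harvesting genes, 2 were higher, with a median of 0.49 and 15 of 16 above 0. *LHCB1.1* and *LHCB1.2* encode near-identical light-harvesting proteins of photosystem II. *LHCB1.1* had 3647 FPKM in SW and 5587, 6053 and 7790.1 FPKM in the mutants (log2 ratio 1.095) and *LHCB1.2* 3572 FPKM in SW and 6840.0, 6627 and 7849.9 FPKM in the mutants (1.14). Of 12 PIP aquaporins, water channels of the plasma membrane, *PIP1;2* was higher (104 and 222 FPKM, 1.09) and *PIP1;1* just short of 2-fold (37.1 and 74.5). Histone genes had 8 of 46 higher (median 0.42) and SAUR auxin-response genes 10 of 41 (median 0.42). With the G/C trend taken out, 1 histone gene and 9 SAUR genes were higher, and 1 SAUR gene was lower. WRKY factors had 4 of 36 lower (median −0.35), or 2 with a median of −0.092 after the trend was taken out.

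Other lists gave few or no calls, as did the kept genes as a whole, of which 6.06% were called in either direction. None of 16 clock genes, 16 genes of abscisic acid, 5 light stress genes, 9 antioxidant enzymes or 3 heat shock genes kept was past 2-fold, with medians of −0.03, 0.18, −0.01, 0.15 and 0.48. With the G/C trend taken out, the median of the abscisic acid genes was −0.14 and that of the heat shock genes 0.13. Of 19 phenylpropanoid and flavonoid genes *MYBL2*, a repressor of anthocyanin synthesis, was lower (122 and 58.7 FPKM, −1.05), and of 10 gibberellin genes the biosynthetic *GA3ox1* was (9.57 and 4.52, −1.003). Each was within 2-fold with the G/C trend taken out. Of 9 flowering repressors and vernalization genes none was past 2-fold: *FLC* had 176 FPKM in SW and 156 in sw:*cbf123*, *MAF5* had 4.42 and 3.65, and *MAF4* was under 1 FPKM in both.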

How the data were processed

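Transcript levels were measured by RNA sequencing of aerial tissue, 2 replicates per group. The deposited values are FPKM, which the authors estimated with Cufflinks and Cuffdiff after aligning reads to TAIR10 with TopHat2 (the submitters' processing notes name TopHat2 2.1.0 and Cufflinks 2.1.1) and combined into 1 value per gene and group in 22 columns. Columns of the authors' own comparisons were not used. Depth per library is unknown.

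The software was pandas 2.3.3 under Python 3.11.15, with NumPy 2.4.6, and statsmodels 0.14.6 for trends (lowess, fraction 0.3). A log2 ratio was taken after 0.5 FPKM was added to both groups, genes were kept at 1 FPKM in either, and a call is a log2 ratio of 1 or more in size. The procedure was tested on simulated data. Positions, biotypes, products, coding sequences and the 1000 bases before the start codon come from RefSeq's TAIR10.1, where 32813 of the 33557 identifiers were found. The design named a supplied promoter window, and this window was read from the genome in its place. The *CBF* alleles come from the study's supplementary alignment.

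Comparisons were sw:*cbf123* over SW at 2 weeks, with the warm, 24 h, sw:*cbf2* and sw:cbf23 values set beside it. Named are the *CBF* genes, genes the study names and up to 6 called members of each list. The 12 largest falls and rises at 5 FPKM or more were to be named too. Most of them were listed at 0 in a line, and only *RBCS1A*, *KIN1* and *GolS3* are named. The following were chosen with their values in view: the lists by product name and their members, further called members of the fixed lists, the *AZI1* neighbours, and the leading protein-coding falls. The members and lists were chosen with earlier results of these data known. Alternatives tried were 0.1 or 1 FPKM added, no filter or a filter of 5 FPKM, median-of-ratios scaling, quantile normalization, a trend on level taken out, and sw:*cbf2* or sw:cbf23 as reference; added later were protein-coding genes above 0 in both groups and a trend on the excess of G over C in coding sequence (G/C) taken out.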

Additional observations from a re-analysis of the deposited data

Results flagged for a closer look

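Genes looked at singly and the called members of the Ws-2 list and the common class were searched for a change of side. In 7 of them sw:*cbf123* lay on one side of SW at 2 weeks and on the other in the warm, past 2-fold both times. Over all kept genes, 23 of the 476 lower and 13 of the 623 higher genes did so. The difference between the treatments was not tested. *COR15A* had a log2 ratio of −2.73 at 2 weeks and 1.18 in the warm, where its levels were 83.6 FPKM in SW and 189.6 in sw:*cbf123*. *COR413IM1* had −1.95 and 1.23. AT4G25433, a LysM-domain protein, had −3.80 and 1.26, with 13.4 FPKM in SW and 0.497 in sw:*cbf123* at 2 weeks. The defensin genes went the other way. *PDF1.2c* had 3.25 at 2 weeks and −1.17 in the warm, *PDF1.3* 2.49 and −1.23, and *PDF1.2b* 1.28 and −1.54. AT2G41082 had 2.40 and −2.99, with 3.91 and 22.9 FPKM at 2 weeks.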

How the results depend on the processing

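No paired analysis was possible because each group has 1 pooled column with no replicate number, and for the same reason leaving out a replicate was not run. Pooled values set no error on a ratio, depth is unknown, and a value of 0 can be a failed estimate.

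Adding 0.1 or 1 FPKM, dropping the filter, both scalings and the trend on level left each count within 1.5 times its value. The reference mattered most. With sw:*cbf2* in place of SW, 208 genes were lower and 107 higher, and with sw:cbf23 184 and 96. The Ws-2 list then had 23 and 13 lower (medians −0.38 and −0.25), and the common class 16 and 8 (−0.72 and −0.48). Genes induced in SW at 24 h and lower were 112 and 98, reduced at 24 h and higher 16 and 16, induced at 2 weeks and lower 83 and 58, and reduced at 2 weeks and higher 15 and 16 (129 with SW). With the G/C trend taken out, 233 were lower and 341 higher, 86 reduced at 24 h and higher, 127 induced at 2 weeks and lower, and 74 reduced at 2 weeks and higher. The last count was 80 with a filter of 5 FPKM, and induced at 2 weeks and lower was 125 for protein-coding genes above 0. The cause was not tested.

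The share of lower genes with the motif was 21.1% on the forward strand (13.6% of all kept), 45.1% for CCGAC (42.6%) and 12.3% in 250 bases (7.58%).

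Among called genes and list medians of 0.5 or more in size, signs turned as follows. With sw:cbf23 as reference, the medians of cold shock and RNA-binding (−0.30) and glycine-rich RNA-binding genes (−0.12), and *SAG101* (0.26), *GA3ox1* (0.11), *CSP2* (−0.33), *CSP4* (−0.22), *GRP7* (−0.55), *GRP8* (−0.12), *GRP23* (AT2G32690, −0.24), *GRP4* (−0.16), AT1G01100 (−0.10), AT4G25890 (−0.087) and AT2G41082 (−1.15) did. With sw:*cbf2* as reference *GRP7* (−0.0044), AT1G08005 (−0.53), AT2G40205 (−0.45) and AT4G25890 (−0.053) did. With the G/C trend taken out, the medians of arabinogalactan proteins (0.079) and extensins (0.0033) and *AGP9* (0.30) did, as did smaller medians, those of abscisic acid (−0.14), starch breakdown (−0.058), touch (−0.025), light stress (0.23), lipid-transfer (0.019), gibberellin (0.042) and jasmonate genes (0.084).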
